A study of Homo sapiens with 9 samples.

Results

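The distal part of the long arm of human chromosome 2, from 160 to 230 Mb in GRCh37, held a dense field of open chromatin peaks in HepG2, a line derived from a human liver cancer. Its members were all peaks of this 70 Mb span in 3 lists, merged wherever peaks of different lists overlapped. This gave 8787 regions of the 111260 regions of the whole genome. The span is called the 2q window below and was set beside 0 to 90 Mb of the same chromosome, which held 6830 regions and lies on the short arm. The 2q window was selected on the density of its peaks and on their low sharing between lists, both read from the same 3 lists, so its density and its sharing are given as a description, without a test. The label held for density, with 126 regions per Mb against 75.9 in 0 to 90 Mb.

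The assay was ATAC-seq, which uses a transposase to cut open DNA and tag it for sequencing. HepG2 cells were transfected for 72 h with siRNA at 50 nM. The control cells received NTG, a non-targeting siRNA, and the other cells received siINO80#1 or siINO80#2, which target INO80. Each siRNA had 3 replicates, 9 samples in all, but the lists give 1 set of peaks per siRNA, so no spread between replicates could be measured and no test between siRNAs was possible. All groups are transient transfections of 1 cell line. The lists hold no RNA, so the depletion of INO80 was not checked here.

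INO80 is the motor subunit of a remodeling complex that slides and edits nucleosomes, and the complex is found at promoters and enhancers. Open regions mark DNA from which nucleosomes are displaced, either at transcription start sites (TSS) or at distal elements bound by sequence-specific factors such as AP-1, a dimer of JUN and FOS family proteins. The distal part of chromosome arm 2q carries the HOXD cluster of body-plan regulators, a cluster of voltage-gated sodium channel genes, several collagen genes and genes of liver metabolism such as CPS1, the entry enzyme of the urea cycle. It also includes long stretches with few genes.

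Peaks at the start sites of hepatocyte marker genes were checked over the whole genome. Of 10 such genes, including ALB, AFP and HNF4A, 7 had a peak in all 3 lists and 1, FGB, had none in any list. Leukocyte markers had a peak in all lists for 1 of 4 genes, fibroblast markers for 2 of 3 and neuronal markers for 0 of 3. Over all protein-coding genes, 51.2% had a start-site peak in all 3 lists and 35.0% had none. The marker sets are small beside these shares. The fibroblast genes were DCN and PDGFRB, and their part in the results was not tested.

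Sequences of strong regions of several classes are printed first, as examples picked by strength and not as typical members. The 7 classes are defined by which lists had a peak in a region, and "siINO80 pair" stands for a peak in siINO80#1 and siINO80#2 but none in NTG. Each sequence is the 200 bp around the summit of the strongest peak, from the GRCh37 reference on the plus strand. Words were searched on both strands, with TGACTCA or TGAGTCA for AP-1 and a core word for CTCF, the insulator protein. Over all regions of the genome, 11.9% held an AP-1 word and 4.18% held a CTCF core. Capitals mark an AP-1 word or a CTCF core, or a looser form of the CTCF core, which includes the stricter core and was added after the NTG sequences had been read. The looser core was found in 7.60% of all regions. A match describes the letters and does not show that a factor was bound.

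The second and the third strongest region of the siINO80 pair show 1 or more AP-1 words each, as did 22.9% of that class.
upstream of DYTN, chr2:207593214-207593413: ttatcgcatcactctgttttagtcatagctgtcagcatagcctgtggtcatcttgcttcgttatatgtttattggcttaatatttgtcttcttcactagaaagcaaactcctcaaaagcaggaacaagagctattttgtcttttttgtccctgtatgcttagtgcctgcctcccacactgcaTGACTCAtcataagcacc
between genes, nearest start ENSG00000288900, chr2:192512693-192512892: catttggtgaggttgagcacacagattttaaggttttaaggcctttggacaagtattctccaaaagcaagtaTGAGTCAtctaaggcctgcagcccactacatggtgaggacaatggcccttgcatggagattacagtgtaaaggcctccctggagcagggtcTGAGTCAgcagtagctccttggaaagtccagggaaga

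The strongest regions of siINO80#2 alone also held an AP-1 word, which 6.83% of that class did.
upstream of TFPI, chr2:188505966-188506165: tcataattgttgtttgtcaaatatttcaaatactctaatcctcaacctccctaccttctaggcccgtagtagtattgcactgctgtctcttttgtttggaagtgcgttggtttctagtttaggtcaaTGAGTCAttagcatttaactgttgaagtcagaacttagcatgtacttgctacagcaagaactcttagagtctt
SCHLAP1 intron, chr2:181572745-181572944: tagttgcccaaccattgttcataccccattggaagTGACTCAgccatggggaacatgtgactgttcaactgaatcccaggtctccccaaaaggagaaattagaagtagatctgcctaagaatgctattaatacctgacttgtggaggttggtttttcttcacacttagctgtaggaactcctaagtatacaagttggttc

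The second and the third strongest region of NTG alone are shown beside them and hold none of these words in this window of letters, whereas 3.66% of that class held an AP-1 word and 2.22% the looser CTCF core.
SPAG16 intron, chr2:214590901-214591100: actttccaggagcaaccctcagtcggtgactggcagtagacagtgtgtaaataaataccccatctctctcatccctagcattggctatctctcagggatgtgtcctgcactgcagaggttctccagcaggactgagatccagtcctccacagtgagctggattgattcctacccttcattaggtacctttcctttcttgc
B3GALT1 intron, chr2:168407059-168407258: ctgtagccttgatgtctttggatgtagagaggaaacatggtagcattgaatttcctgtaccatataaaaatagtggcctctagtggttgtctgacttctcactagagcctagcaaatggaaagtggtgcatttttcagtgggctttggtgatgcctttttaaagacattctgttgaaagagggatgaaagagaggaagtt

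For comparison, the strongest distal region that all lists shared held none of these words. The second region of siINO80#1 alone held a CTCF core, as did 0.718% of that class. The strongest region of siINO80#1 alone, in a PDE11A intron and not printed, held none of these words. AP-1 words were in 5.53% of that class.
KCNH7 intron, chr2:163431213-163431412: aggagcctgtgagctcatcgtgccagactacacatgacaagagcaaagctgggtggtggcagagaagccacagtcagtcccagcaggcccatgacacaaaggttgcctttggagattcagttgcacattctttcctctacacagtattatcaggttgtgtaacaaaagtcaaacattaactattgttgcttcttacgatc
MAIP1 intron, chr2:200850464-200850663: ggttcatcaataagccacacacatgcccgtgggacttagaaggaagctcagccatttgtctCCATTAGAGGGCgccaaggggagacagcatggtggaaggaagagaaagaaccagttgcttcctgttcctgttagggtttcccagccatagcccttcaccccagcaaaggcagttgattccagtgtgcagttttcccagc

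The region near DYTN, 7.02 kb from its start site, spanned chr2:207593082-207593675. Its peak had a fold enrichment of 6.16 in siINO80#1 and 7.13 in siINO80#2, where fold enrichment is the reads at the summit over the local background of the same list. These values stood at percentile 87.1 and 93.3 of their own lists. The intergenic region 29.8 kb from the start of a lncRNA had 5.96 and 5.39. NTG had no peak at either region, so no fold can be given for it. A missing peak says that the caller's threshold was not passed, not that the DNA was closed.

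Among the strong regions of NTG alone, the second, in the SPAG16 intron, had a fold enrichment of 5.86 and the third, in the B3GALT1 intron, 5.32. SPAG16 encodes a protein of the sperm axoneme and B3GALT1 a galactosyltransferase. These peaks rested on 34 and 33 reads at the summit. The strongest region of siINO80#1 alone lay in an intron of PDE11A, a phosphodiesterase gene, with 6.73, and the next in an intron of MAIP1, with 6.10. The regions of siINO80#2 alone were weaker, with 5.05 at 75.6 kb from the start of TFPI, the gene of a coagulation inhibitor, and 4.15 in the SCHLAP1 lncRNA.

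Regions shared by all lists were far stronger. The CCDC150 promoter (chr2:197504021-197504904) had 16.6 in NTG, 18.1 in siINO80#1 and 15.2 in siINO80#2. The PLCL1 promoter had 17.2, 17.9 and 13.2 in the same order. The KCNH7 intron, in a potassium channel gene and 46.4 kb from the nearest start site, had 15.9, 18.5 and 13.6. All stood at percentile 99.8 or higher of each list. The widest region, 2987 bp at the PLEKHA3 promoter, had 9.05, 8.70 and 7.21.

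Some regions joined NTG with only 1 of the siINO80 lists. Near the start of KCNH7, a region had 7.72 in NTG and 6.76 in siINO80#1, and an intron of MOGAT1, a monoacylglycerol acyltransferase gene, had 6.77 and 7.26. With siINO80#2, NTG shared a region in the LINC01934 lncRNA (5.44 and 4.84) and a region in an NBEAL1 intron (5.90 and 4.54).

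The 2q window held 4647 peaks of NTG, 4835 of siINO80#1 and 3696 of siINO80#2. This was 66.4, 69.1 and 52.8 peaks per Mb, against 42.2, 42.1 and 33 per Mb in 0 to 90 Mb. The window took a similar part of each list, at 6.66%, 6.97% and 6.96%. The merged regions covered 3.40 Mb, or 4.85% of the span, against 2.94% in 0 to 90 Mb. The median region was 266 bp wide, and the median spacing was 5594 bp against 8052 bp in 0 to 90 Mb.

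Of the regions of the 2q window, 1503 were in all 3 lists, which is 17.1% (95% Wilson interval 16.3 to 17.9) against 26.8% of all regions. NTG alone held 2297 regions (26.1% against 24.4%), siINO80#1 alone 2369 (27.0% against 21.6%) and siINO80#2 alone 1479 (16.8% against 11.7%). The siINO80 pair held 371 regions (4.22% against 5.19%). NTG with siINO80#1 held 518 (5.90% against 7.64%) and NTG with siINO80#2 held 250 (2.85% against 2.62%). At equal list size, with the 53113 strongest peaks of each list, the order of the single lists changed, to 21.4% for NTG alone, 21.0% for siINO80#1 alone and 24.9% for siINO80#2 alone. Single-list regions were 69.9% of the window and 67.5% of 0 to 90 Mb with all peaks. The intervals cover counting error only and treat neighbouring regions as independent, which they are not.

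**Figure D1:**
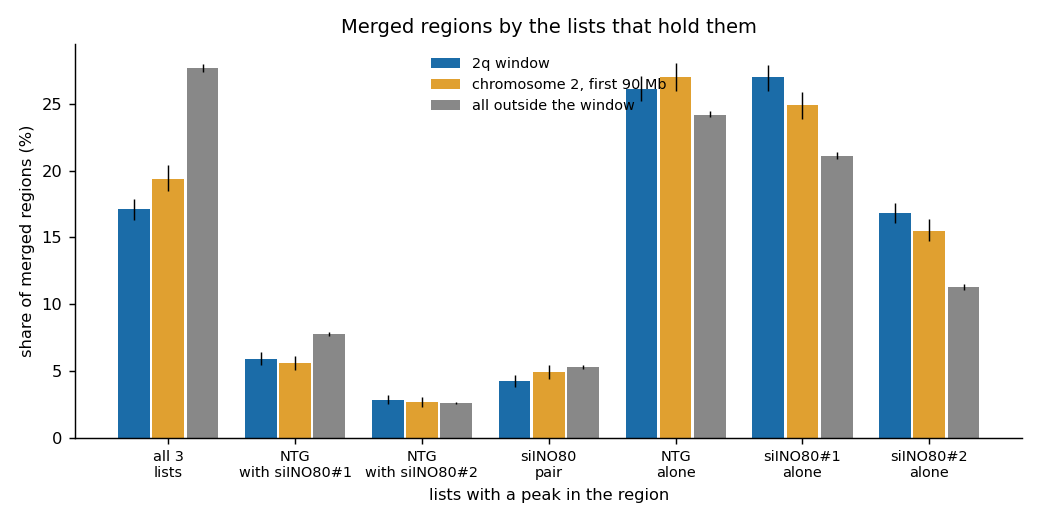
Share of merged regions in each class of lists (percent), for the 2q window, 0 to 90 Mb of chromosome 2 and all regions outside the window; bars start at 0 and lines are 95% Wilson intervals. The window had 17.1% of its regions in all 3 lists, and the outside regions had 27.7%.

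Sharing between peaks was low in every direction. Of NTG peaks in the window, 44.7% overlapped a siINO80#1 peak (56.5% over the genome) and 38.5% a siINO80#2 peak (48.0%). Of siINO80#1 peaks, 42.7% overlapped an NTG peak (56.6%) and 39.1% a siINO80#2 peak (52.2%). Of siINO80#2 peaks, 48.8% overlapped an NTG peak (63.6%) and 52.1% a siINO80#1 peak (69.1%). In 0 to 90 Mb these shares ran from 40.5% to 57.4%. Counted from siINO80#1 peaks, the siINO80 lists overlapped each other less than siINO80#1 overlapped NTG with all peaks, but more at equal list size (49.8% against 46.9%).

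The peaks of the 2q window were weaker than those outside it and close to those of 0 to 90 Mb. The median fold enrichment was 3.11 in NTG, 2.87 in siINO80#1 and 2.88 in siINO80#2, against 3.43, 3.21 and 3.20 outside the window and 3.11, 2.89 and 2.85 in 0 to 90 Mb. Peaks with a −log10 q of at least 5 were 31.4%, 32.2% and 33.7% of the window and 45.6%, 47.6% and 47.7% of the lists. At the median summit there were 17, 19 and 20 reads. These read numbers were recovered from the fold enrichment and the −log10 p of each peak. Regions in all 3 lists had a median fold enrichment of 4.72, 4.56 and 3.99, whereas regions of a single list had 2.88 for NTG, 2.60 for siINO80#1 and 2.64 for siINO80#2.

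Sharing rose with strength from decile 2 upward, in the window as it did elsewhere, but was higher in the weakest decile than in decile 2. Of NTG peaks in the weakest decile of the list, 31.9% (28.2 to 35.9) overlapped a peak of either other list. In decile 2 this was 25.9% (22.5 to 29.6), in decile 6 it was 54.7%, and in decile 10 it was 100% of 341 peaks. Over all deciles, 50.6% of NTG peaks, 51.0% of siINO80#1 peaks and 60.0% of siINO80#2 peaks in the window had such a match. The remaining 2297 NTG peaks (49.4% against 38.9% of the whole list), 2369 siINO80#1 peaks (49.0% against 34.6%) and 1479 siINO80#2 peaks (40.0% against 24.6%) had none. When the window's deciles were weighted as in the whole list, the shares were 58.3%, 59.8% and 67.3%, against 61.3%, 65.9% and 76.1% outside the window. They were 58.2%, 62.4% and 70.7% in 0 to 90 Mb. With these weights both spans lay below the outside in each list.

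**Figure D2:**
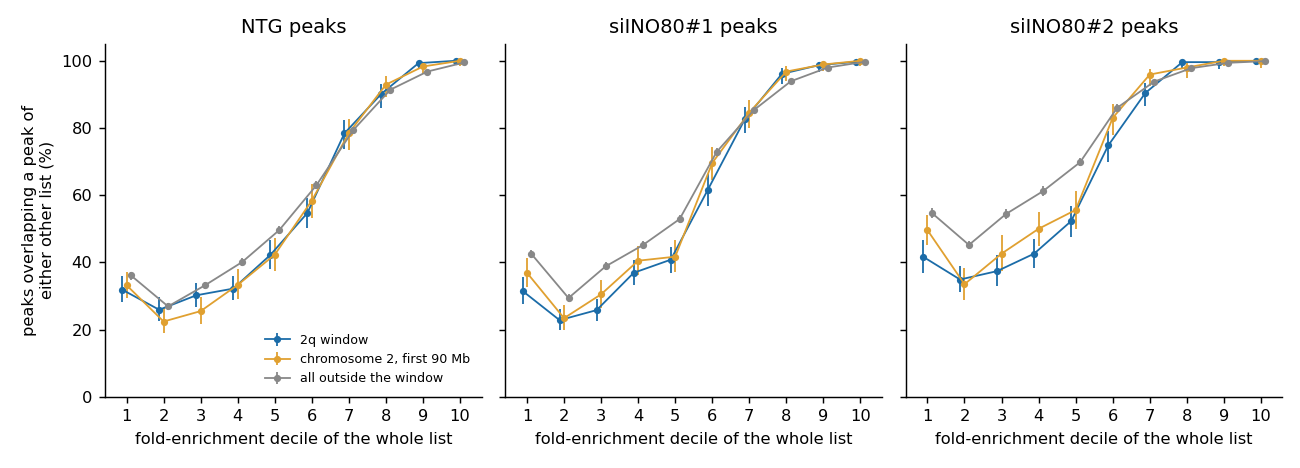
Share of peaks that overlapped a peak of either other list (percent) by decile of fold enrichment in the whole list, 1 panel per list, for the 2q window, 0 to 90 Mb of chromosome 2 and all peaks outside the window; lines are 95% Wilson intervals. In the weakest NTG decile 31.9% of window peaks were matched, and in the strongest 100%.

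Unmatched peaks lay nearer to a peak of another list in the window than in 0 to 90 Mb. The median distance from an unmatched peak to the nearest peak of another list was 3044 bp for NTG, 2935 bp for siINO80#1 and 2388 bp for siINO80#2. In 0 to 90 Mb, where peaks were less dense, it was 5588, 5006 and 4311 bp. Of the unmatched NTG peaks of the window, 17.5% had such a peak within 500 bp, against 11.7% in 0 to 90 Mb and 12.1% over the genome. The window was selected for dense peaks, so these distances are a description.

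Where lists did share regions, they ranked them alike. Over 2021 regions with peaks of NTG and siINO80#1, Spearman's rho between fold enrichments was 0.763. It was 0.734 between NTG and siINO80#2 (1753 regions) and 0.805 between siINO80#1 and siINO80#2 (1874 regions). Peaks of a region share their DNA and regions were selected for a peak in both lists, so these values are descriptions across regions. Paired summits lay a median of 42.0, 45.0 and 36.5 bp apart.

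The local background at the peaks was lower in the window than in 0 to 90 Mb. The median background over the lowest background of the list was 1.22 in NTG, 1.15 in siINO80#1 and 1.21 in siINO80#2, against 1.36, 1.28 and 1.4 in 0 to 90 Mb. Outside the window it was 1.23, 1.20 and 1.23. The part of the background in the density or the sharing of the window was not tested.

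Along the window the regions were uneven. In bins of 1 Mb the number ran from 47 to 213, with a median of 130. The most lay at 188 to 189 Mb, which contains TFPI and has 22 annotated start sites, and 16% of its regions were in all 3 lists. The fewest lay at 172 to 173 Mb, with 102 start sites, among them those of DLX1 and DLX2, homeobox regulators of forebrain and limb, and there 40.4% were in all 3 lists. Bins rich in regions were poor in start sites, with Spearman's rho of −0.464 over 70 bins, and poor in G and C, with rho −0.708. The share in all 3 lists followed start sites, with rho 0.720. These are descriptions, since neighbouring bins share sequence composition and the same lists.

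In bins of 5 Mb the highest numbers were 884 regions at 180 to 185 Mb and 856 at 210 to 215 Mb, and the lowest was 279 at 170 to 175 Mb. The edges of the window did not coincide with a step on the centromere side, where the 5 Mb just outside held 618 regions and the 5 Mb just inside 674. On the telomere side, the last 5 Mb inside held 656 and the next 5 Mb outside 292. The share in all 3 lists was 12.5%, 17.5%, 15.4% and 29.5% in these bins.

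The bins were split into 3 groups by their number of start sites. The group with the fewest start sites had 145 regions per Mb, of which 11.1% (10.1 to 12.2) were in all 3 lists, the middle group 133 and 17.8%, and the group with the most 100 and 24.6% (22.9 to 26.4). Single-list regions fell from 111 to 91.0 to 62.2 per Mb over these groups, while regions in all lists numbered 16.1, 23.6 and 24.6 per Mb. In 0 to 90 Mb, groups made in the same way had 84.8, 73.1 and 69.8 regions per Mb. The lists moved together along the window, with rho between peak numbers per bin of 0.884 between NTG and siINO80#1, 0.872 between NTG and siINO80#2 and 0.890 between siINO80#1 and siINO80#2.

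**Figure D3:**
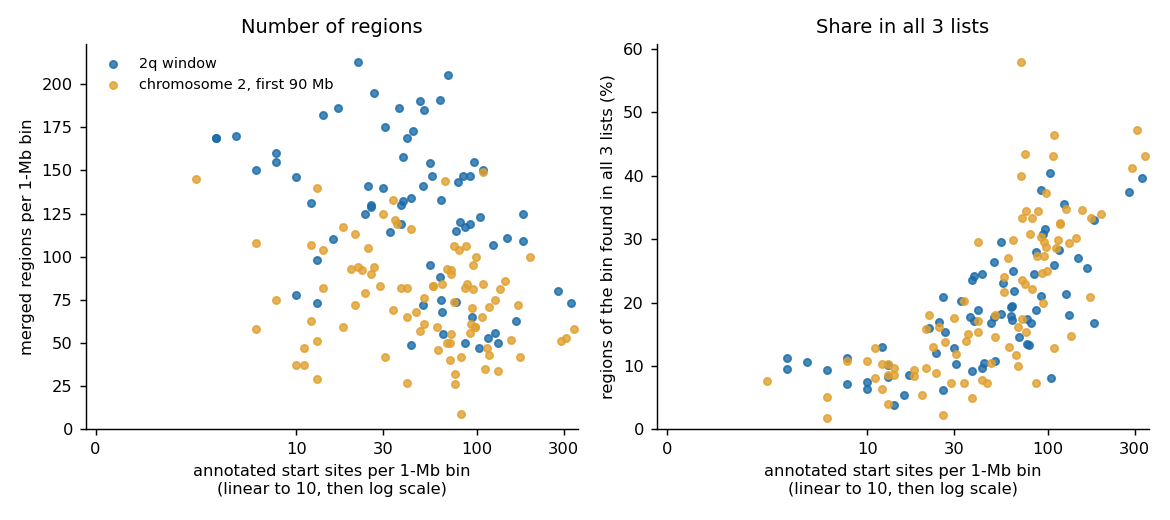
Bins of 1 Mb in the 2q window and in 0 to 90 Mb of chromosome 2, with the number of annotated start sites on the horizontal axis (linear to 10, then log) and, on the vertical axes, the merged regions per bin (left) and the percent of them in all 3 lists (right). Window bins ran from 47 to 213 regions, and the share in all lists rose with start sites in both spans.

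Most of the window's regions were distal. A summit lay within 1 kb of an annotated start site in 8.88% of regions, in an exon in 2.92%, in an intron in 55.0% and between genes in 33.2%. Of peaks, 12.4% in NTG, 11.9% in siINO80#1 and 13.7% in siINO80#2 were TSS-proximal, against 25.5%, 25.1% and 27.6% of the whole lists and 16.9%, 17.3% and 19.1% in 0 to 90 Mb. The window had 65.5 start sites per Mb and 0 to 90 Mb had 71.0, and the GC contents were 38.5% and 40.7%.

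Place and sharing moved together. Of the 780 TSS-proximal regions of the window, 45.3% (41.8 to 48.8) were in all 3 lists, and of the 8007 distal regions 14.4% (13.6 to 15.1) were. In 0 to 90 Mb the shares were 52.9% and 14.9%, and the interval for distal regions (14.0 to 15.8) overlapped that of the window. Outside the window they were 54.6% and 20.8%. Regions with at least 5 CpG dinucleotides around the summit were 25.7% of those in all lists but 4.70% of NTG alone, 3.80% of siINO80#1 alone and 3.52% of siINO80#2 alone. Over the genome the shares of these classes were higher, at 45.0%, 13.2%, 11.9% and 8.10%, with the same order of classes. Over all classes the share was 8.31% in the window and 22.4% over the genome.

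Most promoters of the window had a peak in every list. Of 373 protein-coding genes whose start sites all lay inside it, NTG had a peak summit within 1 kb of a start site for 298, siINO80#1 for 297 and siINO80#2 for 283. In all lists, 272 genes (72.9%, 68.2 to 77.2) had one, against 51.2% of all genes of the genome, and 63 (16.9% against 35.0%) had none. In 0 to 90 Mb the values were 71.5% and 16.4%. The median fold enrichment at promoters in all lists was 7.36, 6.97 and 6.02 in NTG, siINO80#1 and siINO80#2, against 5.97, 5.54 and 4.68 over the genome.

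Few promoters had a peak in some lists and not in others. NTG only held 6 genes (1.61% against a background of 3.20%), siINO80#1 only 5 (1.34% against 2.59%) and siINO80#2 only 3 (0.804% against 0.684%). The siINO80 pair held 4 (1.07% against 0.942%), NTG with siINO80#1 16 (4.29% against 5.60%) and NTG with siINO80#2 4 (1.07% against 0.764%). The genes in this paragraph were named after their values were seen. The siINO80 pair was COL3A1, a collagen gene (fold enrichment 2.85 in siINO80#1 and 2.71 in siINO80#2), XIRP2 (2.44 and 2.88), C2orf80 (2.63 and 2.22) and CCDC195 (2.44 and 2.37), all at or below the median of the window's peaks. XIRP2 also lay under a wider NTG peak whose summits were more than 1 kb away. NTG only included GAD1, the glutamate decarboxylase that makes GABA, with 3.44, and CYBRD1, an iron reductase, with 3.06. The others of NTG only were SCYGR1 with 2.86, CRYGD with 2.79, SLC11A1 with 2.07 and SLC4A3 with 1.87. Of these NTG genes, only GAD1 lay above the NTG median of the window's peaks, 3.11. In siINO80#2 only were CHRNA1, a muscle acetylcholine receptor subunit, with 2.74, SPHKAP with 2.52 and SCYGR3 with 2.41.

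The list of liver-secreted, transport and metabolic genes, the liver list for short, held 19 genes in the window. Of these, 12 had a promoter peak in all lists, 1 in 2 lists, 1 in 1 list and 5 in none. Counts of this and of each list below are read against the 72.9% of window genes with a peak in all lists. CPS1 had 15.5 in NTG, 15.1 in siINO80#1 and 12 in siINO80#2, at a start site it shares with LANCL1, which faces away from it, so the peak cannot be ascribed to either gene. A gene's value is that of the strongest peak at any of its start sites, so the lists may give different peaks and neighbours may share one. IDH1, the cytosolic isocitrate dehydrogenase, had 12.2, 11 and 9.81, the same values as its neighbour PIKFYVE. ACSL3, which activates fatty acids, had 10.3, 10.1 and 9.05, and MOGAT1 had 10.5, 8.56 and 6.66. SLC40A1, the iron exporter ferroportin, had 8.60, 8.95 and 5.78. Each of these genes had a promoter peak with each siRNA, and the fold enrichment was lowest in siINO80#2, as was the median over all promoters of the window.

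Other genes of the list had lower values or no promoter peak. FN1, fibronectin, had 6.37, 6.12 and 4.58 at its start sites and 25, 18 and 15 peaks in its body. TFPI had 5.24, 6.40 and 4.96, and 15, 17 and 22 peaks in its body, so that siINO80#2 had the most there although its list was the shortest. LRP2, the endocytic receptor megalin, had 2.86 in NTG and 3.02 in siINO80#1 and no promoter peak in siINO80#2. ABCB11, the bile salt export pump, and IGFBP2, IGFBP5, G6PC2 and SLC23A3 had no promoter peak in any list, although ABCB11 had 5, 4 and 3 peaks in its body.

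The HOXD list had 11 genes, with 2 in all lists, 1 in 2 lists and 8 in none. EVX2 and HOXD13 to HOXD8, and also HOXD4, had no promoter peak. HOXD3 had 2.48 in NTG and 2.22 in siINO80#2 and none in siINO80#1. HOXD1, at the end of the cluster, had 3.80 in NTG, 4.43 in siINO80#1 and 3.91 in siINO80#2. MTX2, a mitochondrial import gene beside the cluster, had 9.93, 9.65 and 8.63.

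Developmental transcription factors had promoter peaks in all lists for 7 of 10 genes. KLF7 had 7.40, 6.85 and 5.88 and IKZF2 6.25, 6.91 and 5.67. The forebrain regulators DLX1 (4.74, 3.91 and 4.45), DLX2 (3.08, 2.37 and 2.56) and TBR1 (2.34, 2.09 and 2.77) had weaker peaks. NEUROD1, a neuronal and islet factor, had none. The list of transcription and chromatin genes that most cells use also held CUL3, a gene of protein degradation. Promoter peaks were in all lists for 11 of its 11 genes. Among them INO80D, a subunit of the INO80 complex, had 7.32, 7.62 and 7.06. CUL3 had 11.2, 13.7 and 13.4, higher in both siINO80 lists. NFE2L2, which CUL3 and KEAP1 send for degradation, had 8.69, 6.11 and 5.49, but the siINO80 values equal those of AGPS, whose start faces it and which had 5.56 in NTG, so these values need not be of 1 peak. Fold enrichments of different lists have different depths and backgrounds, and these differences have no replicate check.

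Of 5 sodium channel genes, 3 had promoter peaks in all lists and 2, SCN3A and SCN7A, in NTG and siINO80#1. SCN2A had 13.2, 12.2 and 9.42 and SCN9A 9.89, 9.22 and 7.76. SCN7A had 23, 21 and 16 peaks in its body of 208 kb. Of 4 collagen genes, COL4A3 and COL4A4, which share a start region, had 3.46, 3.0 and 2.37. COL5A2 had no promoter peak but 22, 23 and 12 peaks in its body, and COL3A1 had promoter peaks in the siINO80 lists only.

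Of 6 T cell and neutrophil genes, CD28, CTLA4, ICOS, CXCR1 and CXCR2 had no promoter peak in any list. STAT4, a cytokine signal transducer, had 12.3, 8.46 and 10.8. All 16 housekeeping genes of the window had promoter peaks in all lists, for example PSMD14, a proteasome subunit, with 11.4, 10.9 and 10.5, and SSB, an RNA-binding protein, with 10.6, 11.2 and 8.66. The apoptosis genes CASP8 (8.06, 5.97 and 6.13), CASP10 and CFLAR also had peaks in all lists. IFIH1, the RNA sensor, had 11.3, 10.4 and 8.81. FZD7, a Wnt receptor, had 3.82 in NTG and 4.30 in siINO80#1 only.

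**Figure D4:**
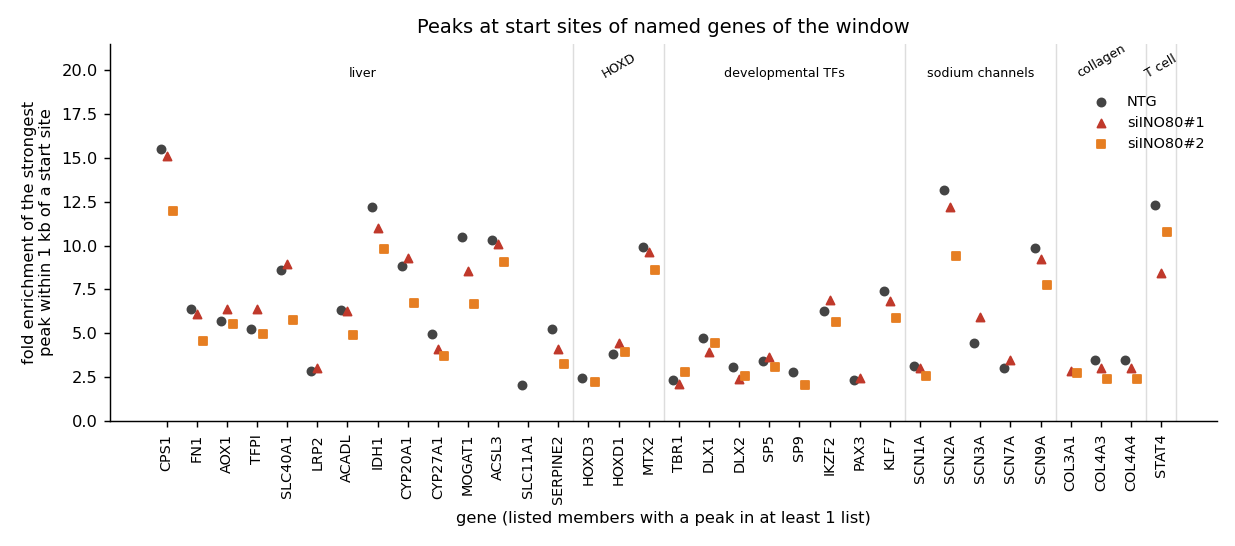
Fold enrichment (linear axis from 0) of the strongest peak within 1 kb of a start site, for genes of the liver, HOXD, developmental factor, sodium channel, collagen and T cell lists, with 1 point per list and no point where a list had no peak; genes without a peak in any list are not drawn. CPS1 reached 15.5 in NTG, COL3A1 has siINO80 points only, and each point is 1 list without replicates.

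AP-1 words were found in 7.98% (7.43 to 8.56) of the window's regions, against 10.1% in 0 to 90 Mb. By class, the siINO80 pair had the highest share, with 22.9% of 371 regions (18.9 to 27.5), against 28.7% in 0 to 90 Mb and 32.0% over the genome. Regions in all lists had 16.5% (14.7 to 18.5). These classes differ in place, with 6.20% of the pair and 23.5% of regions in all lists TSS-proximal. Among distal regions the pair had 22.1% (18.1 to 26.8) and regions in all lists 19.8% (17.6 to 22.2), so these intervals overlapped. Over the genome the distal shares were 32.9% (31.6 to 34.2) for the pair and 23.6% (22.9 to 24.2) for regions in all lists. Over all window regions, NTG alone had 3.66% (2.96 to 4.51), siINO80#1 alone 5.53% (4.68 to 6.52) and siINO80#2 alone 6.83% (5.65 to 8.23). Over the genome these single-list shares were 5.13%, 10.5% and 10.5%. The regions that NTG shared with siINO80#1 alone had 6.18% and those it shared with siINO80#2 alone 8.0%. The regions of the siINO80 pair printed above are examples of this class.

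**Figure D5:**
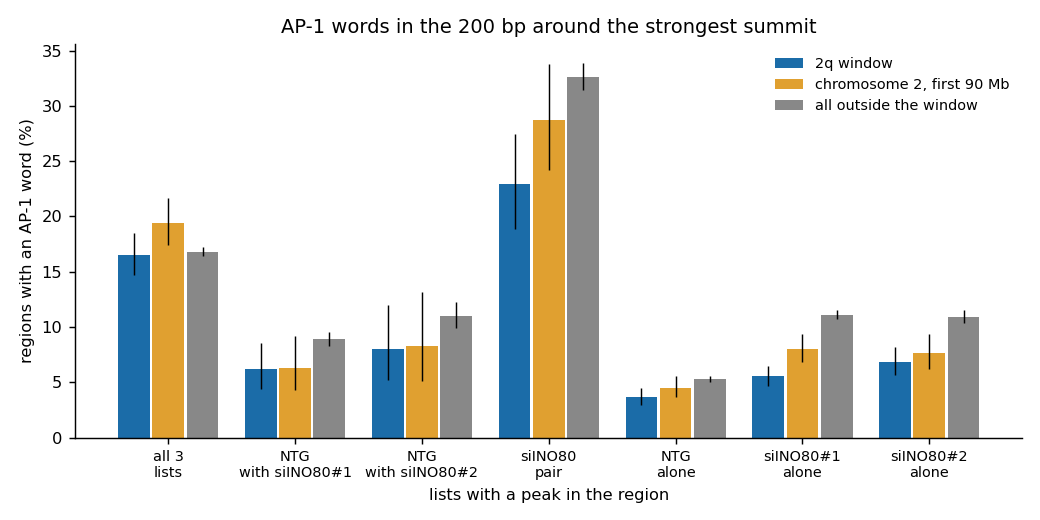
Percent of regions with an AP-1 word in the 200 bp around the strongest summit, by class of lists, for the 2q window, 0 to 90 Mb of chromosome 2 and all regions outside the window; bars start at 0 and lines are 95% Wilson intervals. In the window the siINO80 pair had 22.9% and NTG alone 3.66%.

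The shares were also taken among stronger peaks, with the classes made anew from the peaks kept. A region counted there as of a single list or of the siINO80 pair can hold a weaker peak of another list. When only peaks with a −log10 q of at least 5 were kept, AP-1 words were in 19.1% (15.1 to 24.0) of siINO80#1 alone, 25.8% (19.1 to 33.8) of siINO80#2 alone and 36.4% (29.4 to 43.9) of the siINO80 pair, but in 5.77% (3.68 to 8.93) of NTG alone. Regions in all lists had 18.2% (15.8 to 20.9). The intervals of both siINO80 single lists lay above that of NTG alone at this threshold and over all peaks. In the 100 bp around the summit, over all peaks, the interval of siINO80#1 alone (2.35 to 3.72) overlapped that of NTG alone (1.36 to 2.46).

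Regions that all lists shared were compared by their percentile within each list, which depends on the length of the list (53113 peaks in siINO80#2 and 69730 in NTG). Among the 248 shared regions with an AP-1 word, the median percentile of fold enrichment was 69.7 in NTG, 81.2 in siINO80#1 and 79.7 in siINO80#2. The median difference from NTG was 7.04 percentile points (4.40 to 9.01) for siINO80#1 and 6.14 (3.84 to 8.94) for siINO80#2, with a higher percentile in 71.8% and 68.5% of regions. Among the 1255 shared regions without the word, it was −0.283 (−0.821 to 0.0891) for siINO80#1 and −3.81 (−4.86 to −3.08) for siINO80#2, so a shift of siINO80#2 is read only beside these regions. On the fold scale, regions with the word had 4.40, 5.23 and 4.87 and regions without it 4.76, 4.42 and 3.83.

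Distal regions alone gave 7.11 and 6.31 percentile points with the word and −0.504 and −4.30 without it. In 0 to 90 Mb the median differences with the word were 5.06 for siINO80#1 and 0.691 (−0.908 to 3.25) for siINO80#2. Outside the window they were 5.80 and 2.71. Both contrasts share the NTG list, so the siINO80 lists are not independent evidence of each other.

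CTCF cores were in 7.25% of the window's regions in all lists (6.32% over the genome) but in 1.22% of NTG alone (2.90%), 0.718% of siINO80#1 alone (2.62%), 0.879% of siINO80#2 alone (1.94%) and 1.08% of the siINO80 pair (3.98%). Regions of NTG with siINO80#1 had 3.86% (7.66%) and those of NTG with siINO80#2 5.60% (7.25%), the genome share standing in parentheses for each class. The looser core gave 12.8% for all lists and 2.22% for NTG alone. The word of FOXA, pioneer factors of liver enhancers (TGTTTAC), was in 4.48% of the window's regions against 4.95% over the genome. It was in 6.85% (5.68 to 8.24) of regions in all lists and 6.20% (4.17 to 9.13) of the siINO80 pair. NTG alone had 3.22% (2.57 to 4.03), siINO80#1 alone 4.26% (3.52 to 5.15) and siINO80#2 alone 3.52% (2.69 to 4.58). The intervals of these single lists overlapped. NTG with siINO80#1 had 5.98% (4.25 to 8.37), and the interval for NTG with siINO80#2 was 2.19 to 7.21. Over the genome the shares were 6.21% for all lists and 7.29% for the pair. The single lists had 3.70%, 4.76% and 3.86% there, in the same order. Words of ETS factors and of NRF1, which are common at promoters, were in 0.239% and 0.0341% of the window's regions, against 0.785% and 0.152% over the genome.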

How the data were processed

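ATAC-seq of 9 samples was represented by 3 peak lists, 1 for each siRNA, with the 3 replicates of a siRNA in 1 list. The submitters' processing notes name Trim Galore 0.4.1, Bowtie2, SAMtools, MACS2, deepTools 2.2.4 and the build hg19; their settings, the treatment of the transposase offset and the filter applied after calling are not given in the sources used here. Fold enrichment was deposited as a ratio to the local background, p was deposited as −log10 p, and q was deposited by the authors as a score, its −log10, with a minimum of 1.30 in every list. The summit offset was used to place summits. Sequencing depth is unknown.

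Peaks of the lists that overlapped by at least 1 bp were merged, and peaks with several summits were counted once, at the summit of highest fold enrichment, except at promoters, where every summit was used. Reads and background were solved from fold enrichment and −log10 p under the formulas of MACS2, which left −log10 p off by no more than 0.00121. The minimum background of each list served as its genome-wide level. Recovered depths relative to NTG were 1.43 for siINO80#1 and 1.44 for siINO80#2, if the shortest peak width is the fragment length of the caller. Start sites (220821) and genes came from GENCODE lifted to GRCh37. Each share has a 95% Wilson interval and each median an order-statistic interval. No p-value was computed, since each siRNA had 1 list.

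Members, gene lists, words and comparisons were chosen with earlier results of these data known. Named regions were the 3 strongest by within-list percentile that all lists shared, the 3 strongest of NTG alone and of the siINO80 pair, the 2 strongest of each other class, the widest region and the 1-Mb bins with the most and fewest regions. The strongest region of NTG alone, that of the siINO80 pair and 1 listed gene are not reported here. Named genes came from 10 lists, and exceptions are stated. Of the listed genes, GPD2 and PSMD1 lay outside the window, and ATP5MC3 and CNOT9 were found through older symbols. Overlap, merging and recovery were tested on simulated data. The tools were bedtools 2.31.1, pysam 0.24.0, scipy 1.17.1, pandas 2.3.3 and numpy 2.4.6 under Python 3.11.15. Alternatives were a −log10 q of at least 5, equal list size, an overlap of at least 50%, merging within 500 bp, other window edges, another TSS distance, start sites of protein-coding genes, 100 bp around the summit and, added after seeing the data, a looser CTCF core and the strongest summit only at promoters.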

Additional observations from a re-analysis of the deposited data

Results flagged for a closer look

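The siINO80 lists moved away from NTG in opposite directions in 4 of 7 measures of the 2q window. siINO80#1 had 188 more peaks than NTG, and siINO80#2 minus NTG was −951. The covered length differed by 0.0832 Mb for siINO80#1 and −0.356 Mb for siINO80#2, the median width by −1 and 5 bp, and the TSS-proximal share by −0.524 and 1.33 percentage points. With 1 list per siRNA these differences were not tested. siINO80#2 is the shortest list over the genome too, with 53113 peaks against 69730 in NTG and 69333 in siINO80#1.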

How the results depend on the processing

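No paired analysis was possible because the lists are pooled over replicates, and for the same reason no replicate could be left out. Of 135 values under alternatives, 62 stayed within their interval, or for counts within 1.5 times, and 73 moved; none has a direction to reverse. Trimming the window by 5 Mb at each end moved none of its 29 values, and the strongest summit alone moved none of the 3 promoter counts.

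With a −log10 q of at least 5, peaks numbered 1459 in NTG, 1556 in siINO80#1 and 1245 in siINO80#2. Classes were made anew from the peaks kept, so their regions can hold weaker peaks of other lists. Class shares became 43.3% for all lists, 15.4% for NTG alone, 14.7% for siINO80#1 alone, 6.50% for siINO80#2 alone, 9.79% for NTG with siINO80#1, 2.31% for NTG with siINO80#2 and 8.12% for the siINO80 pair. In the same order of classes they were 19.5%, 21.4%, 21.0%, 24.9%, 4.01%, 3.55% and 5.64% at equal list size, and 20.5%, 23.8%, 24.1%, 14.5%, 7.63%, 3.79% and 5.69% with peaks within 500 bp merged.

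Sharing is given for NTG in siINO80#1 and in siINO80#2, siINO80#1 in NTG and in siINO80#2, and siINO80#2 in NTG and in siINO80#1. It became 75.3%, 64.7%, 70.1%, 67.8%, 75.8% and 85.6% with the q threshold, 48.7%, 47.8%, 46.9%, 49.8%, 43.5% and 47.4% at equal list size, and 35.5%, 30.1%, 33.4%, 30.6%, 40.0% and 43.6% with an overlap of at least 50%. TSS-proximal shares of NTG, siINO80#1 and siINO80#2 became 24.1%, 23.0% and 25.9% and local backgrounds 1.56, 1.5 and 1.56 with the q threshold. At equal list size the shares of NTG and siINO80#1 were 13.6% and 13.3%. A TSS distance of 2.5 kb gave 18.4%, 18.5% and 20.3%, and protein-coding start sites 7.57%, 7.01% and 8.63%, both by construction.

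AP-1 shares with the q threshold became 5.77%, 19.1% and 25.8% for NTG, siINO80#1 and siINO80#2 alone, 12.8% for NTG with siINO80#2 and 36.4% for the siINO80 pair. In 100 bp around the summit, fewer by construction, they were 12.2% for all lists, 1.83%, 2.95% and 3.99% for the single lists, 4.05% and 4.40% for NTG with siINO80#1 and with siINO80#2, and 13.2% for the pair. The looser CTCF core gave 12.8% for all lists, 2.22%, 1.73% and 1.76% for the single lists and 2.96% for the pair. The cause of the other moves was not tested. A −log10 q under 5 held for most peaks of the window, so a missing peak is a weak statement there.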

Other observations

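Of the strongest promoters of the window that all lists shared, ANKAR had fold enrichments of 18.1 in NTG, 17.4 in siINO80#1 and 13.1 in siINO80#2. GCA, which encodes a calcium-binding protein, had 13.4, 14.7 and 15.7, the highest value being in siINO80#2. HIBCH, an enzyme of valine breakdown, had 14.2, 13.2 and 11.8, DNAJC10, a chaperone of the endoplasmic reticulum, 12.8, 12.1 and 11.1, and SPAG16 14.1, 14.5 and 11.8. These genes were named after their values were seen.

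Promoters that NTG shared with siINO80#1 but not siINO80#2 included SCN3A (4.42 and 5.95), CCDC141 (5.72 and 2.41), ADAM23 (4.01 and 4.43), WIPF1 (3.98 and 2.64) and GCG, the glucagon gene (2.72 and 2.76), where siINO80#2 had a peak without a summit within 1 kb. Those that NTG shared with siINO80#2 were HOXD3, SP9 (2.82 and 2.07), DYTN (2.70 and 2.81) and MYL1 (2.58 and 2.46). They too were named after their values were seen.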
